A study of Mus musculus with 3 samples.

Results

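miR-221 and miR-222 are a pair of clustered microRNAs (miRNAs) on the X chromosome. An miRNA is cut from a hairpin precursor whose 5′ and 3′ arms can each give a mature strand, named 5p and 3p, and the mature strand guides Argonaute proteins to messenger RNAs that pair with its seed, bases 2 to 8. In the testis miR-221 and miR-222 are known for holding spermatogonia in the undifferentiated state by repressing Kit, the receptor of stem cell factor, which appears when spermatogonia start to differentiate. Outside the germ line they are also known in endothelial, smooth muscle and blood-forming cells, where Kit and the cell cycle inhibitor Cdkn1b are among their reported targets.

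The members described here were the 4 mature names mmu-miR-221-3p, mmu-miR-221-5p, mmu-miR-222-3p and mmu-miR-222-5p (the prefix for mouse is dropped in what follows), chosen by name among the mature and hairpin entries of the small RNA catalogues. Of these 4, miR-221-3p and miR-222-3p had mature and hairpin entries in every library, and the other 2 had no entry in any. In all, 805 names had a mature or hairpin entry in at least 1 library.

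The data came from extracellular vesicles (EVs) of the testes of C57/BL6 male mice at postnatal day 7 (PND7). Each of the 3 libraries held EVs pooled from 10 mice, isolated from the supernatant of digested, decapsulated testes and treated with proteinase K, PMSF and RNase A before RNA extraction. There was 1 condition and no comparison group, and although the sample titles carry the word treated, the other labels and the study's methods describe EVs taken directly from testis. The EVs came from the whole organ, so any of its cell types could have released them, and fewer vesicles with an miRNA and less miRNA per vesicle cannot be told apart.

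The 3 libraries had between 25716952 and 27939308 clean reads, of which 870967 to 1005836 were counted on mature miRNAs and 493345 to 612122 on hairpin entries. For 272 mature miRNAs that reached 10 counts in each library, chi-square per degree of freedom was 96.6 to 187 between pairs of libraries, so no pair agreed within counting noise, and Spearman's rho across these miRNAs was 0.901 to 0.924. The miRNA markers of testis cells were read as sums of the mature level, in counts per 1000000 mature counts of the library (CPM). Markers of gonadal somatic cells (miR-202-5p, miR-202-3p and miR-140-3p, 3 of 3 listed) summed to 21357 to 29846 CPM. Most of this sum was miR-202-5p, at 18595 to 28354 CPM, and miR-140-3p had 34.1 to 154 CPM. Germ cell markers (8 of 10 listed) summed to 1074 to 2190 CPM, with miR-34b-5p and miR-34c-5p at 0 mature counts in every library, while the opposite arms miR-34b-3p and miR-34c-3p had means of 73.5 and 54.8 CPM. Of the 8, miR-291a-3p, miR-293-3p and miR-295-3p had mature counts in replicate 2 only. The highest were miR-449a-5p, miR-871-3p and miR-741-3p, with means of 718, 496 and 248 CPM. Endothelial markers (miR-126a-3p and miR-126a-5p) summed to 8790 to 17143 CPM, mural markers (miR-143-3p and miR-145a-5p) to 12092 to 13757 CPM, erythroid markers (3 of 4 listed, with miR-144-5p at 0) to 356 to 597 CPM and leukocyte markers (4 of 4 listed) to 336 to 628 CPM. Most of the leukocyte sum was miR-150-5p, with a mean of 442 CPM. miR-142a-3p, miR-142a-5p and miR-223-3p had means of 4.83, 2.08 and 20.2 CPM. Most of the erythroid sum was miR-451a, with a mean of 411 CPM, against 47.4 for miR-486a-5p and 6.05 for miR-144-3p. The part of these cell types in the levels of miR-221 and miR-222 was not tested.

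The mature strands are shown first because the shared seed, in capitals, is what makes miR-221-3p and miR-222-3p a family. The sequences are from RefSeq on GRCm38.p6, written 5′ to 3′.
miR-221-3p: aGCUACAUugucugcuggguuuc
miR-222-3p: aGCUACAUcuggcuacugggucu
miR-221-5p: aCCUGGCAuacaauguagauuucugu
miR-1928: aGCUACAUugccagcuc
miR-221-3p and miR-222-3p, each of 23 bases, had the same 8 leading bases but were identical at only 11 of 23 positions when aligned from base 1 without gaps. Of the 1679 mature mouse names in RefSeq, 3 carried the seed GCUACAU, the third being miR-1928, which had no mature or hairpin count in any library. The seed of miR-221-5p, CCUGGCA, was found in no other name. Names in the RefSeq table matched 3 of the 4 members, all but miR-222-5p.

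The hairpins are shown with the annotated mature arms in capitals, to locate the counted strands within the precursors.
Mir221: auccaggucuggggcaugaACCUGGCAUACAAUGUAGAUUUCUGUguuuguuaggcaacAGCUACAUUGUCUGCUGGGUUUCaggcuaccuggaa
Mir222: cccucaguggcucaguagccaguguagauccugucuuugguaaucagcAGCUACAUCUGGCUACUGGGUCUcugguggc
Mir221 lies at chrX:19146294-19146388 and Mir222 at chrX:19146893-19146971, both on the minus strand of GRCm38, with 504 bases between them. The 3p arm occupies bases 60 to 82 of the 95 bases of Mir221 and bases 49 to 71 of the 79 bases of Mir222. In the GENCODE annotation no other gene overlapped either hairpin, and the closest, the processed transcript Gm14636, lay 10010 bases from Mir222.

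Kit is shown because it is the target that the pair is known for in the testis. The match to the seed is ATGTAGC in the messenger RNA, and followed by A it is the 8-base site ATGTAGCA. The longest annotated 3′ untranslated region (UTR) of Kit, 2177 bases long, held 2 such 8-base sites, given here with the match in capitals.
Kit site at chr5:75654978-75654999, plus strand: atgatgggagatatATGTAGCA
Kit site at chr5:75656509-75656530, plus strand: ttgtaaatattgaaATGTAGCA
Their matches cover bases 447 to 454 and 1978 to 1985 of the UTR. Among the 2766 genes with a 3′ UTR of 0.8 to 1.2 times that length, 5.50% held the 8-base site. Only the sense strand of the UTRs was searched, and the 8-base site contains the 7-base match. Targets are often reported because they hold such a match, so their count is no independent evidence. The 7-base match was also present in the longest 3′ UTR of 6 of the 7 other reported targets searched. The cell cycle inhibitors Cdkn1b and Cdkn1c, the pro-apoptotic genes Bbc3 and Bmf and the transcription factor Ets1 had 1 8-base site each, and Ets1 had a further 7-base match. Timp3, an inhibitor of metalloproteinases, had 1 7-base match, and the transcription factor Foxo3 had none in this region. Over all 21037 genes with a 3′ UTR, of a median length of 960 bases, the share with the 7-base match was 9.45%. Among genes of similar UTR length it was 21.7% to 28.5% for Cdkn1b, Foxo3, Timp3, Bmf and Ets1, 4.59% for Cdkn1c and 6.0% for Bbc3. The share with the 8-base site was 3.50% over all genes. At similar UTR length it was 8.32% to 10.4% for Cdkn1b, Bmf and Ets1, 1.34% for Cdkn1c and 2.44% for Bbc3. These matches describe the annotated sequence, and no target messenger RNA was measured in these libraries.

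miR-221-3p was present at a moderate level in PND7 testis EVs. Its mature entry had 155 counts in replicate 1, 60 in replicate 2 and 124 in replicate 3, or 178, 59.7 and 128 CPM of the mature counts. The exact (Clopper-Pearson) 95% intervals, which cover counting error only, were 151 to 208, 45.5 to 76.8 and 107 to 153 CPM. Replicate 2 was the lowest, and its interval did not overlap those of the other libraries. The mean was 122 ± 59.4 CPM (SD, n = 3), which ranked 163rd of 604 mature miRNAs with a count.

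miR-222-3p was lower on average and varied more between the libraries. Its mature entry had 59, 16 and 117 counts in replicates 1, 2 and 3, or 67.7, 15.9 and 121 CPM, with intervals of 51.6 to 87.4, 9.09 to 25.8 and 100 to 145 CPM. None of the 3 intervals overlapped, and the order was replicate 3, replicate 1, replicate 2. The mean was 68.2 ± 52.6 CPM (SD, n = 3), at rank 214 of 604, and without replicate 3 it was 41.8 CPM. The median of the mean level over the 604 mature miRNAs was 29.1 CPM, and 73.0% of them lay below miR-221-3p and 64.6% below miR-222-3p.

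**Figure D1:**
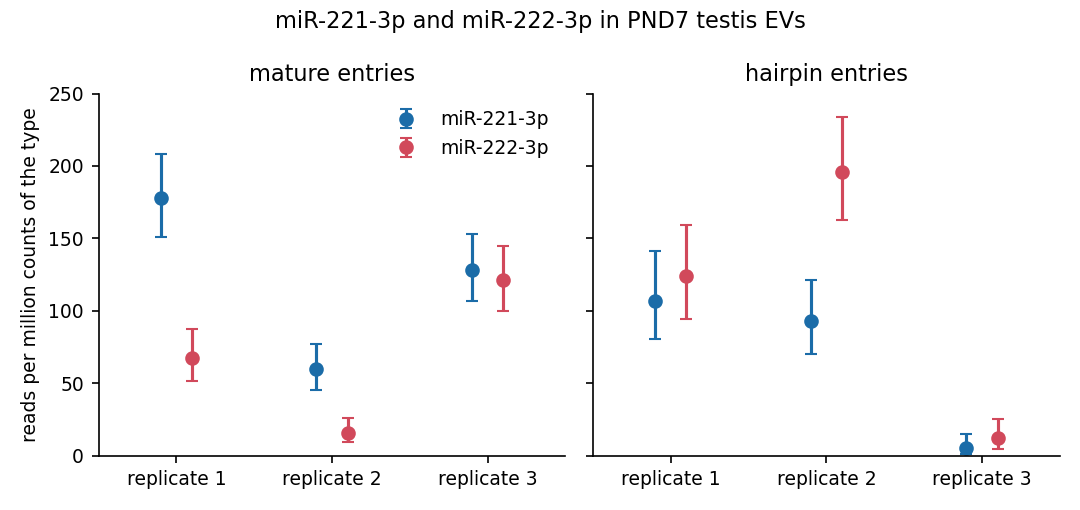
Level of miR-221-3p (blue) and miR-222-3p (red) in each library, as CPM of the mature counts (left) and of the hairpin counts (right); points are single libraries and bars are exact 95% intervals of counting error. The mature entries are lowest in replicate 2, at 59.7 and 15.9, and the hairpin entries are lowest in replicate 3, at 5.19 and 12.1.

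The places in the order of abundance were loose. miR-126a-5p, just above miR-221-3p, had 125 ± 31.5 CPM and miR-669d-5p, just below it, 121 ± 31.3 CPM (SD, n = 3 each), so that neither differed from it by more than the spread between libraries. The same held for the neighbors of miR-222-3p, a predicted miRNA of the catalogue with 68.4 ± 22.4 CPM and miR-495-5p with 67.0 ± 75.8 CPM (SD, n = 3 each). The mean of 67 other mature miRNAs lay within 1 SD of miR-221-3p, and that of 198 within 1 SD of miR-222-3p.

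The highest of the 3 libraries exceeded the lowest 2.98-fold for mature miR-221-3p and 7.61-fold for mature miR-222-3p, against a median of 1.73-fold over the 272 mature miRNAs that reached 10 counts in each library. A ratio at least as high was seen in 21.3% of these miRNAs for miR-221-3p and in 3.31%, or 9 miRNAs, for miR-222-3p. This places miR-222-3p among those of the 272 that agreed least between the libraries, and it is a description over miRNAs that share the same 3 libraries. Mature entries under 10 counts in some library were left out. Some of these agreed less, such as miR-495-5p with 130, 0 and 50 counts in replicates 1, 2 and 3.

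Within a library mature miR-221-3p was more abundant than mature miR-222-3p, but by an amount that changed from library to library. The ratio was 2.63 in replicate 1, with an exact 95% interval of 1.93 to 3.61, and 3.75 in replicate 2, with an interval of 2.13 to 6.98. In replicate 3 it was 1.06, with an interval of 0.817 to 1.38, so that a difference was not detectable at this depth. The mean log2 ratio was 1.11 ± 0.93 (SD, n = 3) and above 0 in 3 of 3 libraries (exact sign-flip permutation test, two-sided, p = 0.25). With 3 libraries this exact permutation test cannot give a p below 0.25, so none of the 5 log2 ratios tested in this way could pass 0.05. The Benjamini-Hochberg value over the 5 was 0.312 here. Among the hairpin entries the order was the opposite, with a mean log2 ratio of -0.79. The hairpin counts of miR-221-3p and miR-222-3p were 53 and 61 in replicate 1, 57 and 120 in replicate 2, and 3 and 7 in replicate 3. The exact 95% intervals of their hairpin levels were apart in replicate 2 only. With both types summed the mean log2 ratio was 0.20.

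The 5p arms were not counted at all. miR-221-5p and miR-222-5p each had 0 of 2843271 mature counts over the 3 libraries, which allows a level of up to 1.06 CPM, and 0 of 1682996 hairpin counts, which allows up to 1.78 CPM of the hairpin counts. With 339 and 192 pooled mature counts, miR-221-3p was at least 113-fold higher than its 5p arm and miR-222-3p at least 64-fold higher, taking 3 counts over the group for the arm at 0. These bounds hold for mature counts only. The Rfam entry of the mir-221 family, described below, is not split by strand and could hold reads of either arm. With the 5p arms at 0 in every library the direction of both arm ratios was fixed, so their test is void and nothing is read from it. Since RefSeq gave no miR-222-5p, it is not known whether the authors' database held that name, and the bound for miR-222 holds only if it did.

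An uncounted opposite arm was common at this depth. Of 156 miRNAs with both arms in RefSeq and at least 192 pooled mature counts on the higher arm, 68, or 43.6%, had 0 on the other arm. The 3p arm was the higher in 38.5% of the 156.

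**Figure D2:**
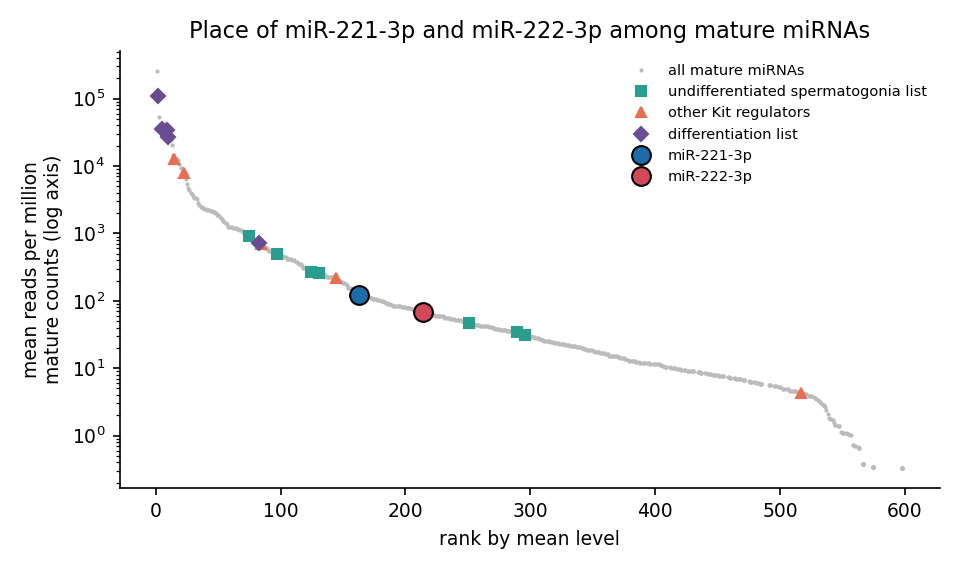
Mean level of the 604 mature miRNAs (grey), in CPM on a log axis, against their rank, with miR-221-3p (blue), miR-222-3p (red) and the miRNAs of 3 lists marked. miR-221-3p at rank 163 and miR-222-3p at rank 214 sit below the let-7 members of the differentiation list and amid the list of undifferentiated spermatogonia.

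Other miRNAs reported to act in undifferentiated spermatogonia lay on both sides of the pair. Of the 8 on this list, 7 were counted, and 4 were higher than miR-221-3p in every library, namely miR-146a-5p with 923 ± 409 CPM, miR-182-5p with 490 ± 136, miR-183-5p with 272 ± 48.5 and miR-21a-5p with 258 ± 17.3 (SD, n = 3 each). miR-106b-5p, with 31.3 ± 28.5 CPM, was lower than miR-222-3p in every library, and miR-106a-5p had 0 counts. miR-20a-5p and miR-17-5p had means of 46.9 ± 7.68 and 34.8 ± 35.8 CPM (SD, n = 3 each). The median of the list, with miR-106a-5p taken at 0, was 152 CPM, against 29.1 CPM over the 604 mature miRNAs with a count. The list was chosen with earlier results of these data known, so this contrast is a description only. These places hold for mature entries, and the hairpin entries gave others, with means of 12034 CPM of the hairpin counts for miR-21a-5p, 181 for miR-20a-5p and 151 for miR-17-5p, against 68.6 for miR-221-3p and 111 for miR-222-3p.

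Of the 5 other miRNAs reported to repress Kit in some cell type, all were counted and 3 exceeded miR-221-3p in every library. miR-34a-5p, a p53-induced miRNA, had 16300, 9278 and 13072 CPM in replicates 1, 2 and 3. miR-218-5p had 8741, 7787 and 7173 CPM, and miR-193b-3p 685, 756 and 667 CPM. miR-193a-3p had 183, 372 and 95.2 CPM and was below miR-221-3p in replicate 3 only. The mature entry of miR-494-3p had counts in replicate 2 only, at 12.9 CPM, whereas its hairpin entry had 16, 52 and 62 counts in replicates 1, 2 and 3. The miRNAs of this list summed to 21707 ± 3900 CPM (SD, n = 3), most of it from miR-34a-5p and miR-218-5p, whereas mature miR-221 and miR-222 summed to 190 ± 99.3 CPM (SD, n = 3).

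Among 7 miRNAs linked to spermatogonial differentiation or to later germ cells, the 4 let-7 members and miR-449a-5p were higher than miR-221-3p in every library, and the 5p arms of miR-34b and miR-34c had 0 mature counts. The lowest of the let-7 members, let-7f-5p, had 26994 ± 10254 CPM and miR-449a-5p 718 ± 314 CPM (SD, n = 3 each). Since the let-7 members are nearly alike in sequence, how reads were shared among them is uncertain.

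The hairpin entries of miR-221 and miR-222 did not follow the mature entries. A hairpin entry carries the name of a mature strand in the catalogue, and what separates it from a mature entry is not given in the sources used here. The hairpin entry of miR-221-3p had 53, 57 and 3 counts in replicates 1, 2 and 3, or 107, 93.1 and 5.19 CPM of the hairpin counts. That of miR-222-3p had 61, 120 and 7 counts, or 124, 196 and 12.1 CPM of the hairpin counts. Both were far lower in replicate 3 than in the other libraries, and neither interval of replicate 3, 1.07 to 15.2 and 4.87 to 25.0, overlapped those of the others. The means were 68.6 ± 55.4 and 111 ± 92.7 CPM of the hairpin counts (SD, n = 3 each), and without replicate 3 they were 100 and 160.

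The mature share of the reads of each name therefore differed widely between the libraries. For miR-221-3p mature entries made up 74.5%, 51.3% and 97.6% of mature and hairpin counts in replicates 1, 2 and 3. For miR-222-3p they made up 49.2%, 11.8% and 94.4%. The same share over all mature and hairpin counts pooled was 63.8%, 62.2% and 62.6%, so the libraries as a whole did not differ in this way. Over the 395 names that reached 10 mature and hairpin counts in each library, the median range of the share between libraries was 14.4 percentage points. The range was 46.4 percentage points for miR-221-3p and 82.6 for miR-222-3p, and 18.7% and 5.32% of the 395 names had a range at least as wide.

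**Figure D3:**
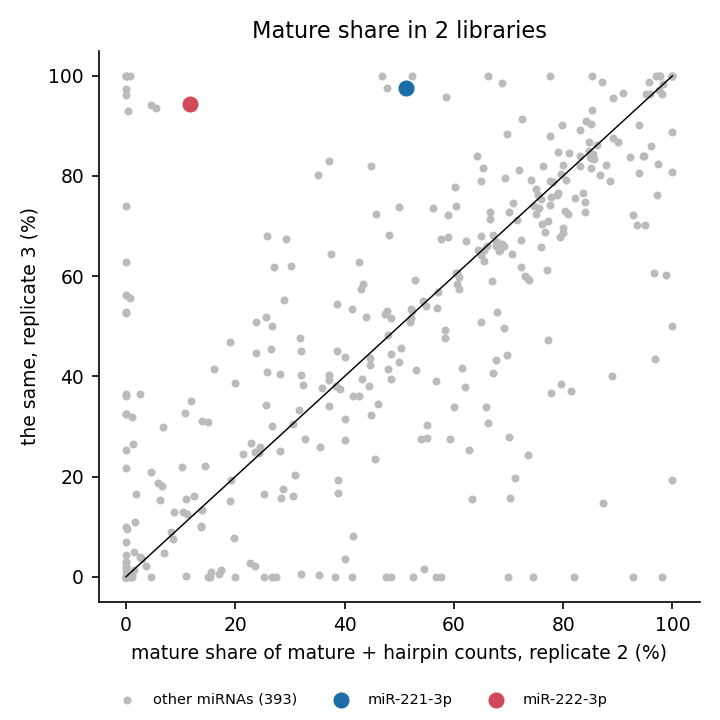
Mature share of mature and hairpin counts, in percent, in replicate 2 (horizontal) and replicate 3 (vertical) for the 395 names that reached 10 such counts in each library; the line marks equal shares. miR-221-3p, at 51.3% and 97.6%, and miR-222-3p, at 11.8% and 94.4%, lie far above the line.

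In the test of the mature against the hairpin entry, miR-221-3p had a mean log2 ratio of 2.26 ± 2.61 (SD, n = 3), above 0 in 3 of 3 libraries (exact sign-flip permutation test, two-sided, p = 0.25), and without replicate 3 the mean was 0.81. These are ratios of raw counts, and every library had more mature than hairpin counts. With each entry scaled to its own type the mean was 1.50 (same exact test, p = 0.50). The sign was then not the same in all libraries, since in replicate 2 the mature share of miR-221-3p, 51.3%, was below the 62.2% of all counts pooled. Single names were often lower. The median share over the 395 names was 48% in replicate 2, and 52.4% of them had a lower share than miR-221-3p. For miR-222-3p the mean was 0.35 ± 3.44 (SD, n = 3) and above 0 in 1 of 3 libraries (same exact test, p = 1), and without replicate 3 it was -1.46. The ratios of miR-222-3p were 0.967, 0.133 and 16.7 in replicates 1, 2 and 3, and those of miR-221-3p 2.92, 1.05 and 41.3. The last of these rests on 3 hairpin counts and has an exact 95% interval of 13.8 to 203. For both names the ratio was lowest in replicate 2 and highest in replicate 3.

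A library standing apart for single entries was seen elsewhere in the data too. Of the 364 hairpin entries with at least 50 counts in some library, 26, or 7.14%, were at least 10-fold lower in replicate 3 than in both other libraries, and those of miR-221-3p and miR-222-3p were among them. The counts for replicates 1 and 2 were 21 and 20 of 364. miR-221-3p and miR-222-3p reached 50 hairpin counts only in replicates 1 and 2, where they were high. Filter and outcome thus used the same values, and their place among the 26 is a description only.

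When mature and hairpin counts of a name were added, the difference between libraries shrank, above all for miR-222-3p. Its sum was 88.0, 84.1 and 80.3 CPM of the mature and hairpin counts in replicates 1, 2 and 3, or 84.1 ± 3.82 (SD, n = 3). The highest library exceeded the lowest 1.10-fold, against 7.61-fold for the mature entry alone and a median of 1.81-fold over the 395 names, of which 98.0% had a ratio at least as high. For miR-221-3p the sum was 152, 72.3 and 82.3 CPM of both types, or 102 ± 43.7 (SD, n = 3), and the ratio 2.11. The summed level was compared after the values of the separate entries had been seen.

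The catalogues also hold an entry for the mir-221 family of Rfam, counted as a precursor and not by strand, with 107, 227 and 110 counts in replicates 1, 2 and 3. Together with it, miR-221 and miR-222 had 435, 480 and 361 reads, or 294, 270 and 213 CPM of the counts on mature, hairpin and precursor entries. Mature entries held 49.2%, 15.8% and 66.8% of these reads, hairpin entries 26.2%, 36.9% and 2.77%, and the Rfam entry 24.6%, 47.3% and 30.5%. Replicate 2 thus had the fewest mature reads but the most hairpin and Rfam reads of the 3 libraries.

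**Figure D4:**
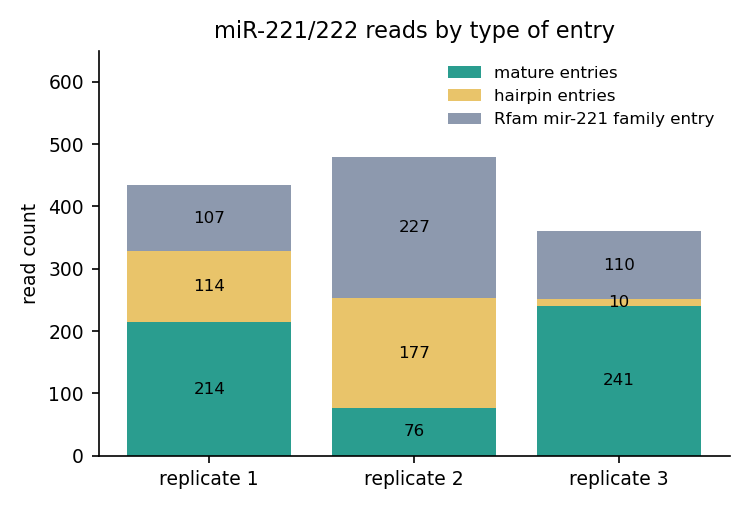
Read counts of miR-221 and miR-222 in each library, stacked by type of entry: mature, hairpin and the Rfam mir-221 family. The totals of 435, 480 and 361 differ less than the parts, with 214, 76 and 241 mature and 114, 177 and 10 hairpin reads.

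The mature miRNAs whose profile over the libraries was nearest to each member were sought among the same 272, by Euclidean distance between log2(CPM + 1) values centered on their own mean. For miR-221-3p the nearest were 2 predicted miRNAs of the catalogue, at distances of 0.13 and 0.15, and miR-543-5p, at 0.29. For miR-222-3p they were miR-206-3p at 0.69, a predicted miRNA at 0.73 and miR-292a-3p at 0.84. The distance between the 2 members was 1.29, which made miR-221-3p the 19th nearest to miR-222-3p and miR-222-3p the 109th nearest to miR-221-3p. Profiles over 3 libraries rest on few points, and the likeness is a description only.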

How the data were processed

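Small RNA of PND7 testis EVs was sequenced on the BGISEQ-500 in 3 libraries. The authors removed low-quality reads, mapped clean reads with Bowtie2 and cmsearch and gave each read to 1 class, with miRBase first; versions are not given in the sources used here, and the build is mm10 per the labels. They deposited raw read counts per small RNA and, per class, counts and the percent of clean reads. A further deposited column equaled CPM of the clean reads on the rows that name a small RNA and was not used. Catalogue totals equaled the class counts and the lowest listed count was 1, so a name without an entry was taken as 0 counts.

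Counts were scaled to CPM of the mature or hairpin counts of each library (870967 to 1005836 mature counts). Exact binomial (Clopper-Pearson) 95% intervals and the limit of 3 counts for a count of 0 cover counting error only, since PCR copies were not told apart. Log2 ratios within libraries, with 0.5 added to each count, were tested with an exact sign-flip permutation test and adjusted by Benjamini-Hochberg over 5 ratios. The labels call the libraries biological replicates, each from a pool of mice, and the study's statistics paragraph gives a smaller number of sets for small RNA sequencing; the 3 deposited libraries were used. The test of the arm ratios is void, since the 5p arms had 0 counts.

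The members and lists were chosen with earlier results of these data known. The names given were the members, miRNAs with the same seed, neighbors in rank, the 3 nearest profiles and 3 fixed lists with cell type markers. Alternatives changed the pseudocount, entry type, denominator, pooling, scaling (TMM of edgeR 4.0.16 and size factors of DESeq2 1.42.0) and each replicate left out. The scripts were tested on simulated data. UTRs and gene positions came from GENCODE vM21, the longest UTR per gene, and miRNA sequences from RefSeq GRCm38.p6. R 4.3.3, SciPy 1.17.1, numpy 2.4.6, pandas 2.3.3, matplotlib 3.10.9 and Python 3.11.15 were used.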

Additional observations from a re-analysis of the deposited data

Results flagged for a closer look

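The Rfam entry named microRNA mir-221 was outside the mature and hairpin comparisons and had counts in every library, above the limit that a count of 0 allows. Its level was 911, 1442 and 740 CPM of the precursor counts in replicates 1, 2 and 3, with a mean of 1031 ± 366 (SD, n = 3). There was no control library, so its background level is not known.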

How the results depend on the processing

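No pairing of samples was possible because the 3 libraries form 1 group, and the log2 ratios paired only entries of the same library. Of 27 alternatives for the summed mature level and the log2 ratios other than the arm ratios, 24 kept the direction or stayed within the spread between libraries, and 3 reversed. Many of the 24 could not have failed. Where a ratio was above 0 in every library, leaving out a library, pooling or another pseudocount could not reverse it. Leaving out 1 of 3 libraries also cannot move the summed mature level by its SD. These alternatives are no evidence of stability. The log2 ratio of miR-221-3p to miR-222-3p, 1.11, was -0.79 with hairpin entries only. The log2 ratio of the mature to the hairpin entry of miR-222-3p, 0.35, was -0.41 with each entry scaled to its own type and -1.46 without replicate 3; the cause was not tested. With each replicate left out in turn it ranged from -1.46 to 1.96, that of miR-221-3p from 0.81 to 3.35, the ratio of miR-221-3p to miR-222-3p from 0.73 to 1.63, the 3p to 5p ratios from 7.44 to 8.12 and from 5.97 to 7.39, and the summed mature level from 161 to 248 CPM. The 3p to 5p ratios rest on the pseudocount and their direction on the 0 counts of the 5p arms, so they say nothing of stability. TMM and median-of-ratios scaling left the level of mature miR-221-3p at 124 and 125 CPM and that of miR-222-3p at 69.7 and 70.2 CPM. Summing mature and hairpin entries gave ranks 217 and 247 of 805 names. The ranks by mature entries, 163 and 214, are of 604, so the ranks are over unlike sets. The small counts, 3 at the least, limit the hairpin values.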
